A study of Mus musculus with 8 samples.

Results

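The genes described are mouse genes that set, read or remove DNA methylation and histone marks or that move nucleosomes. They were listed by name in 5 classes, namely DNA methylation, Polycomb, histone methylation, deacetylases and remodelers, and each was taken from the array's transcript clusters, the probe groups that each report 1 transcript unit. A gene was measured when a cluster carried its symbol alone, and its brightest cluster over all 8 arrays was used where it had several. Of 43 listed genes 42 were measured, out of 19938 genes with a single symbol on the array, and Suv39h1 was not analysed here. The classes held 12 genes of DNA methylation, 10 of Polycomb, 8 of histone methylation, 6 deacetylases and 6 remodelers.

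RNA came from Neuro2a, an established neuroblastoma line of A/J mouse origin, grown in 2 phenotypes with 4 arrays each. Anchorage dependent (AD) cells grew attached in DMEM with fetal bovine serum. Anchorage independent (AI) cells grew as tumorspheres in NeuroCult NSC medium without serum, with EGF, bFGF and heparin. Effects of attachment and of medium cannot be told apart, because both changed together, and a single line was used. The labels call the arrays biological replicates and the methods describe replicate hybridizations, so p-values measure the spread between these arrays, which may in part be technical.

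Cytosine methylation is copied to the new DNA strand after replication by Dnmt1, which Uhrf1 brings to hemimethylated sites, while Dnmt3a and Dnmt3b methylate unmarked sites and Tet enzymes oxidize the mark. Polycomb repressive complex 2 (PRC2) methylates histone H3 at silent developmental genes, and PRC1 ubiquitinates histone H2A there and reads the PRC2 mark through its chromobox subunits. Histone deacetylases and ATP-driven remodelers such as the BAF and NuRD complexes change how open that chromatin is. In neuroblastoma EZH2 is known for silencing differentiation genes.

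Values are log2 signals as deposited, ratios are AD over AI on the log2 scale, and errors are SD over 4 arrays unless named as standard errors. A gene was taken as higher in a phenotype when its adjusted p from limma was under 0.05 over all 35556 clusters, and as called when the difference also reached 1.5-fold. The arrays of a phenotype correlated at 0.991 or more across clusters and those of different phenotypes at 0.990 or less. On the second principal component AD replicate 4 lay at -34.1 and the rest of the AD arrays at 2.4 to 14, so results that rest on it are given with and without it. Markers of sympathetic neuroblasts lay above the median signal of every array in 10 of 11 genes. Of 8 neuron markers, 5 lay above and 3 below the median of every array. All 6 leukocyte markers, 5 of 7 fibroblast markers, 4 of 5 endothelial markers and 4 of 5 Schwann cell and glial markers lay below the median of every array. Exceptions above the median of every array were Erbb3, at 7.92 in AD and 8.44 in AI cells, and Pecam1, at 6.8 and 6.98. The other fibroblast markers lay neither above nor below the median on every array.

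Hells and Hdac9 were the only genes of the 42 that reached the called threshold, and both were higher in AD cells. That is 4.76% of the genes, where 4.41% of all 19938 genes were called in either direction and 2.02% toward AD. At any fold, 10 of the 42 were higher in AD cells, 5 were higher in AI cells and 27 did not pass the test. Among all genes 11% passed toward AD and 10.7% toward AI. Each of the 42 genes had a mean signal above the mean array median of 5.91, and of the 10647 array genes that bright, 3.63% were called toward AD, and at any fold 18.7% passed toward AD and 17.5% toward AI, against 23.8% and 11.9% of the chromatin genes. Their share was thus near the background of equally bright genes and is no result about the set. The same shares are the background for the class and partner counts below, which were not tested as sets. For 10 of the 42 genes all AD arrays exceeded all AI arrays, and for 5 the reverse held, where the background was 13.6% and 13.2% of all genes and 21.1% of bright genes in each direction. The median log2 ratio of the 42 was 0.04, with 27 positive and 15 negative, and that of all genes was 0.01. Without AD replicate 4 the median of the 42 was 0.08. In bulk RNA, fewer cells that express a gene and less of its RNA per cell cannot be told apart.

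**Figure D1:**
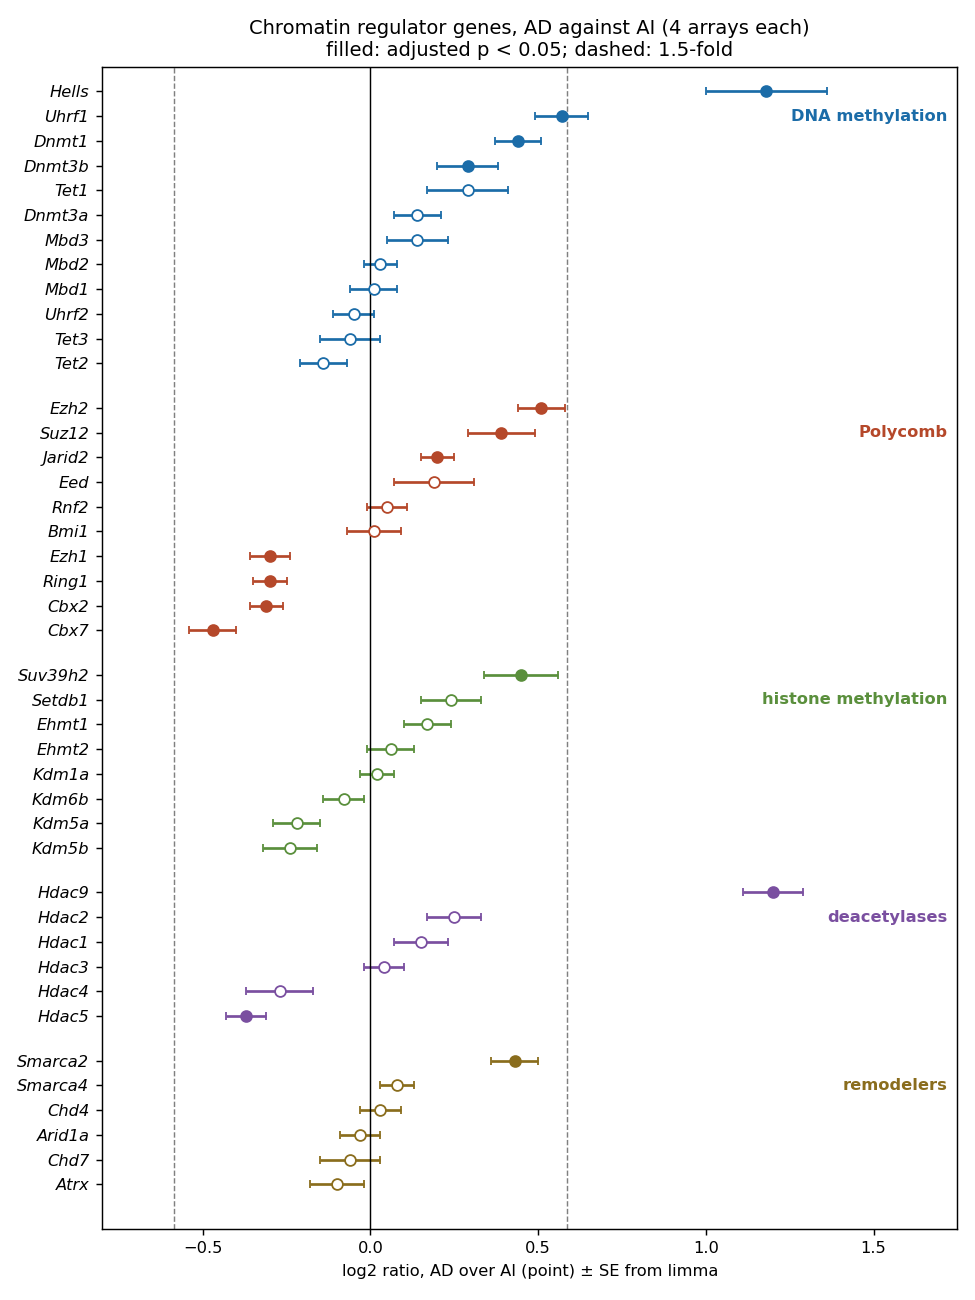
Log2 ratio of AD over AI (horizontal axis) for the 42 measured genes by class, with points for the ratio, bars for the limma standard error, filled points for an adjusted p under 0.05 and dashed lines at 1.5-fold. Hells at 1.18 and Hdac9 at 1.2 lie beyond the dashed lines, and every other gene lies between -0.47 and 0.57.

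In the DNA methylation class 4 of 12 genes were higher in AD cells. Hells, a helicase of the SNF2 family that DNA methylation of repeats requires, was 2.26-fold higher, and Uhrf1 and Dnmt1 were 1.49-fold and 1.36-fold higher. Dnmt3b also passed the test at 1.22-fold, and the other 8 genes of the class did not. The median log2 ratio of the 12 genes was 0.14 (0.19 without AD replicate 4), and none was higher in AI cells.

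Hells gave 9.55, 9.59, 9.48 and 8.80 in AD replicates 1 to 4 and 8.32, 7.97, 7.99 and 8.45 in AI replicates 1 to 4. The phenotypes did not overlap, but AD replicate 4 lay closer to the AI arrays than the other AD arrays did. The means were 9.36 ± 0.37 and 8.18 ± 0.24, a log2 ratio of 1.18 (limma, standard error 0.18 and adjusted p = 0.00232), which was 1.36 without AD replicate 4. Hells was called under each of the 16 alternative settings tried.

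Uhrf1, the ubiquitin ligase that binds hemimethylated CpG sites, had signals of 9.20, 9.15, 9.25 and 8.93 in the AD arrays and 8.69, 8.46, 8.49 and 8.60 in the AI arrays. There was no overlap, and AD replicate 4 was again the lowest AD array. The log2 ratio was 0.57 (standard error 0.08, adjusted p = 0.0017 from limma), just short of 1.5-fold. It was called without AD replicate 4, with 0.64, without AI replicate 1 or AI replicate 4, after median centring and with array weights. Its paralog Uhrf2 had 9.75 ± 0.10 in AD and 9.80 ± 0.05 in AI cells, a log2 ratio of -0.05 that did not pass (adjusted p = 0.693) and was 0.03 after median centring.

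Dnmt1, the maintenance methyltransferase, read 10.00, 9.97, 9.96 and 9.75 in AD cells against 9.53, 9.39, 9.45 and 9.54 in AI cells. AD replicates 1 to 3 lay close together and AD replicate 4 lay below them, still above every AI array. The log2 ratio was 0.44 (standard error 0.07, adjusted p = 0.00262 from limma) and 0.50 without AD replicate 4.

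Dnmt3b and Dnmt3a are the de novo methyltransferases. Dnmt3b had AD signals of 6.24, 6.18, 6.07 and 5.84 and AI signals of 5.76, 5.83, 5.73 and 5.84. AD replicate 4 equalled AI replicate 4 to 2 decimals. All AI arrays lay below their own array's median, which was 5.92 to 5.99, and so did AD replicate 4, whose median was 5.92. The other AD arrays lay above their medians of 5.82 to 5.89. The gene was thus near or below the array median in both phenotypes. The log2 ratio of 0.29 (adjusted p = 0.0437 from limma) passed in 6 of the 16 alternative settings only, among them the fit without AD replicate 4 (0.37, adjusted p = 0.00301). Dnmt3a had 0.14 (8.41 ± 0.11 against 8.27 ± 0.07, adjusted p = 0.186) and did not pass in any setting.

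Of the Tet dioxygenases, Tet1 had a log2 ratio of 0.29 (6.55 ± 0.24 against 6.26 ± 0.13, adjusted p = 0.127), and its AD arrays ranged from 6.27 to 6.85. It passed in 2 of the 16 alternative settings only, among them the fit without AD replicate 4 (0.38, adjusted p = 0.0255 from limma). Its 3 clusters gave 0.19, 0.26 and 0.29. Tet2 had -0.14 and Tet3 had -0.06, and neither passed. The methyl-CpG binding genes Mbd1, Mbd2 and Mbd3 had 0.01, 0.03 and 0.14, and none of them passed.

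**Figure D2:**
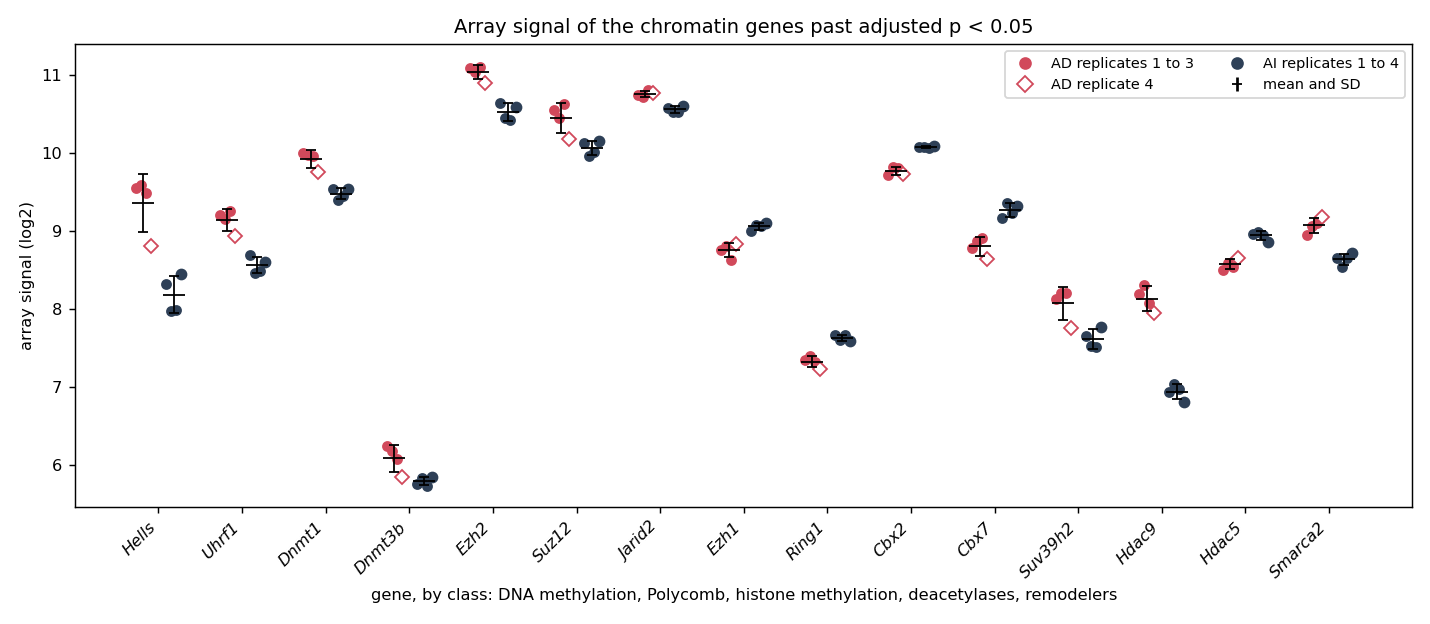
Array signal in log2 (vertical axis) of the 15 genes with an adjusted p under 0.05, with a dot per array, open diamonds for AD replicate 4 and black bars for mean and SD over 4 arrays. Hells and Hdac9 show the widest gaps, Cbx2 in AI cells the smallest spread (10.06 to 10.09), and Suv39h2 is the gene whose AD replicate 4, at 7.76, falls within the AI range.

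Polycomb genes parted in both directions. The PRC2 genes Ezh2, Suz12 and Jarid2 were higher in AD cells, whereas Ezh1, the other catalytic subunit of PRC2, and the PRC1 genes Ring1, Cbx2 and Cbx7 were higher in AI cells. Eed, Rnf2 and Bmi1 did not pass. With 3 genes toward AD and 4 toward AI among 10, the class median was 0.03 (0.08 without AD replicate 4), and no Polycomb gene was called.

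Ezh2, the main methyltransferase subunit of PRC2 in dividing cells, had AD signals of 11.09, 11.04, 11.10 and 10.90 and AI signals of 10.64, 10.44, 10.42 and 10.59. All AD arrays exceeded all AI arrays. The log2 ratio was 0.51 (standard error 0.07, adjusted p = 0.00145 from limma), or 1.43-fold, and after median centring it was 0.59 and was called. Ezh1, which is known for its presence in resting cells, gave 8.76, 8.81, 8.63 and 8.83 in AD arrays and 9.0, 9.07, 9.06 and 9.10 in AI arrays. The AI arrays were uniformly higher, with a log2 ratio of -0.30 (limma, standard error 0.06 and adjusted p = 0.00775).

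Suz12, a core subunit that PRC2 needs for its activity, had AD signals of 10.55, 10.45, 10.62 and 10.18 and AI signals of 10.13, 9.96, 10.01 and 10.15. AD replicate 4 lay just above the highest AI array. The log2 ratio of 0.39 (adjusted p = 0.022 from limma) was 0.48 without that array, and it missed the threshold in 7 of the 16 alternative settings, with an adjusted p of at most 0.0655. Jarid2, which guides PRC2 to its targets, differed little but evenly, with 10.75 ± 0.03 against 10.56 ± 0.04, a log2 ratio of 0.20 (limma, adjusted p = 0.0211) that missed the threshold in 5 settings. Eed, the PRC2 subunit that binds the methyl mark, had 0.19 (limma, adjusted p = 0.345), with AD replicate 4 at 8.50 below the lowest AI array. Without that array Eed had 0.31 (limma, adjusted p = 0.0308), the only 1 of the 16 settings in which it passed.

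Cbx7, a chromobox reader of PRC1, gave 8.78, 8.87, 8.91 and 8.64 in AD arrays and 9.16, 9.35, 9.23 and 9.32 in AI arrays. Cbx2, a further chromobox reader, gave 9.71, 9.82, 9.80 and 9.73 against 10.08, 10.08, 10.06 and 10.09. For both, the phenotypes were cleanly apart. The log2 ratio was -0.47 for Cbx7 (limma, standard error 0.07 and adjusted p = 0.00248) and -0.31 for Cbx2 (limma, standard error 0.05 and adjusted p = 0.00257). Ring1, a ubiquitin ligase of PRC1, had 7.35, 7.39, 7.32 and 7.23 in AD arrays and 7.66, 7.60, 7.66 and 7.59 in AI arrays, again without overlap, at a log2 ratio of -0.30 (limma, adjusted p = 0.00478). Its paralog Rnf2 had 0.05 (10.27 ± 0.09 against 10.22 ± 0.03). Bmi1, the partner that stimulates these ligases, had 0.01, with AD replicate 4 at 9.17 below the other AD arrays at 9.49 to 9.54.

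In the histone methylation class Suv39h2 alone passed. Suv39h2, which methylates histone H3 in pericentric heterochromatin, had AD signals of 8.12, 8.20, 8.20 and 7.76 and AI signals of 7.65, 7.52, 7.51 and 7.77. AD replicates 1 to 3 stood above all AI arrays, and AD replicate 4 stood just below the highest AI array. The log2 ratio was 0.45 (standard error 0.11, adjusted p = 0.0176 from limma) and 0.56 without AD replicate 4, and it missed the threshold in 6 of the 16 settings. Setdb1, Ehmt1 and Ehmt2, further methyltransferases of the same histone, had 0.24, 0.17 and 0.06 and did not pass with all arrays. Without AD replicate 4, Setdb1 passed with 0.33 (limma, adjusted p = 0.00994) and Ehmt1 with 0.22 (limma, adjusted p = 0.0327). Each passed in only 2 of the 16 settings.

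Among the demethylases, Kdm5b had -0.24 (adjusted p = 0.0564) and Kdm5a had -0.22 (adjusted p = 0.0675), both of which take methyl groups off histone H3 at active promoters. AD replicate 4 lay at 8.90 for Kdm5b and 8.63 for Kdm5a, above the other AD arrays and within the AI range. Both passed without it, with -0.31 (limma, adjusted p = 0.00409) and -0.28 (limma, adjusted p = 0.00948). Kdm5b passed in 4 and Kdm5a in 3 of the 16 alternative settings. Kdm6b, which removes the PRC2 mark, had -0.08 and Kdm1a, a demethylase of the CoREST complex, had 0.02. The class median over 8 genes was 0.04.

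Of the 6 deacetylases, Hdac9 was higher in AD cells and Hdac5 in AI cells, both members of the class that shuttles between nucleus and cytoplasm and represses MEF2 factors. Hdac9 gave 8.19, 8.31, 8.08 and 7.94 in AD arrays and 6.94, 7.03, 6.97 and 6.81 in AI arrays. The lowest AD array was well above the highest AI array. The log2 ratio was 1.2, or 2.29-fold (standard error 0.09, adjusted p = 3.68e-05 from limma), 1.26 without AD replicate 4, and it was called in each of the 16 settings.

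Hdac5 ran the other way, with 8.50, 8.59, 8.54 and 8.65 in AD arrays and 8.96, 8.99, 8.95 and 8.86 in AI arrays. No arrays overlapped, at a log2 ratio of -0.37 (limma, standard error 0.06 and adjusted p = 0.00221). Hdac4, of the same class, read 8.61, 8.61, 8.42 and 8.89 in AD arrays and 8.85, 8.82, 9.03 and 8.91 in AI arrays. AD replicate 4 lay within the AI range, and the log2 ratio of -0.27 did not pass (limma, adjusted p = 0.0839). Without that array it passed, with -0.36 (limma, adjusted p = 0.00979), as it did in only 2 of the 16 settings. The second Hdac4 cluster had -0.23.

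Hdac1, Hdac2 and Hdac3, the nuclear enzymes of the NuRD, Sin3 and NCoR complexes, had 0.15, 0.25 and 0.04 and did not pass. Hdac2 was nearest to the limit, with 11.41 ± 0.12 against 11.16 ± 0.10 (adjusted p = 0.0507 from limma). Without AD replicate 4 it passed with 0.31 (limma, adjusted p = 0.0102), as did Hdac1 with 0.22 (limma, adjusted p = 0.0182). Hdac2 passed in 6 and Hdac1 in 1 of the 16 alternative settings.

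Smarca2 was the remodeler gene that passed. Smarca2 and Smarca4 encode the BRM and BRG1 proteins, the alternative ATPases of the BAF complex. Smarca2 had 8.94, 9.06, 9.10 and 9.18 in AD arrays and 8.65, 8.54, 8.65 and 8.71 in AI arrays, with AD replicate 4 here the highest AD array. The groups were apart, at a log2 ratio of 0.43 (limma, standard error 0.07 and adjusted p = 0.00214). Smarca4 had 10.35 ± 0.02 in AD and 10.27 ± 0.02 in AI cells. Its arrays did not overlap either, but the ratio of 0.08 did not pass (adjusted p = 0.296).

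The BAF subunit Arid1a had -0.03, the NuRD ATPase Chd4 had 0.03, the neural crest remodeler Chd7 had -0.06 and Atrx, which deposits histone H3.3 with Daxx, had -0.10. None of them passed. Chd7 is covered by 30 clusters on the array, with log2 ratios from -0.24 to 0.15 and a median of -0.07, of which 26 were negative and 0 passed at an adjusted p under 0.05. The class median of the 6 remodelers was -0.00, and 0.04 without AD replicate 4.

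**Figure D3:**
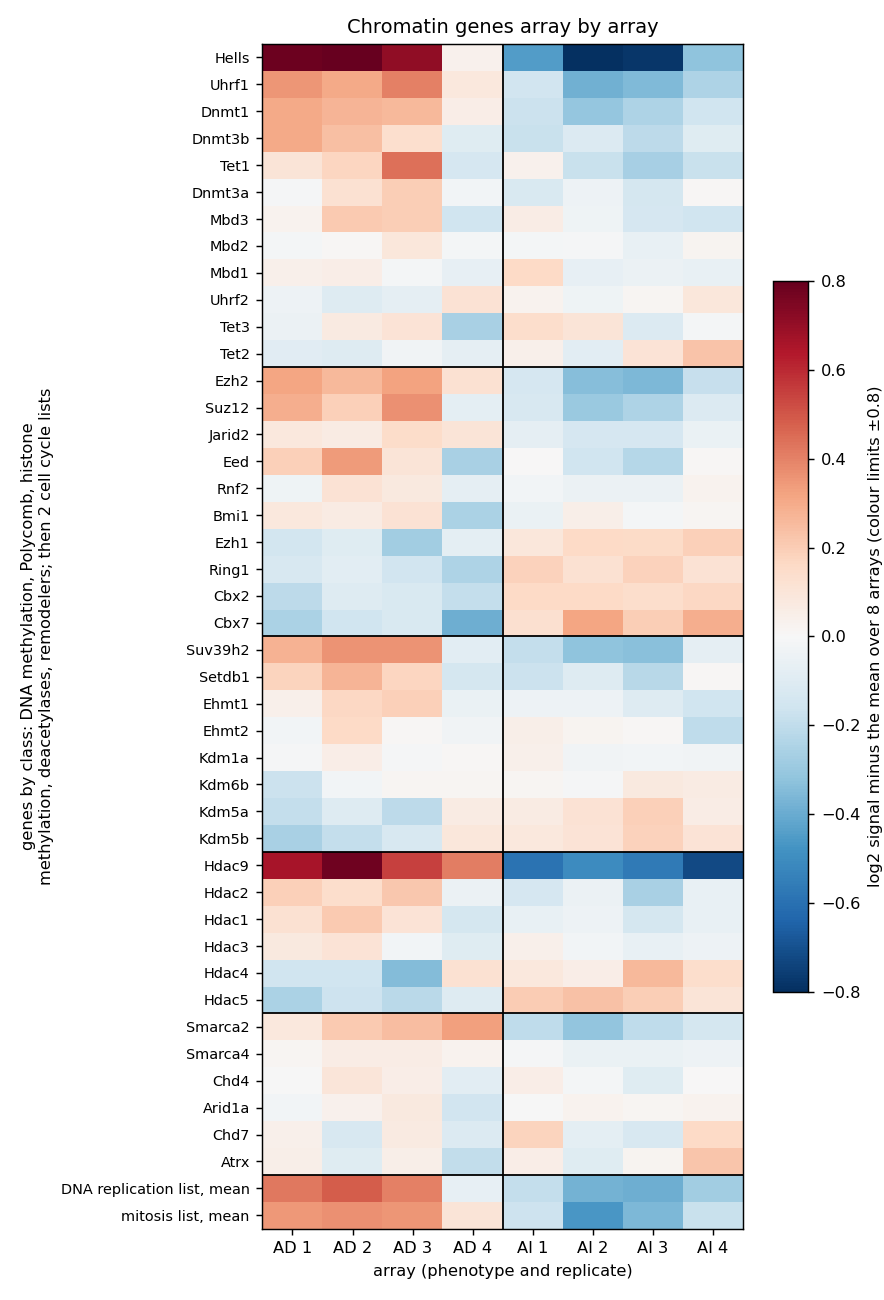
Log2 signal of each of the 42 genes minus its own mean over the 8 arrays (colour), by array (columns, AD left of the vertical line, AI right) and by class, with the means of 2 cell cycle lists in the bottom lines. AD replicate 4 is paler than the other AD arrays for most genes that are higher in AD cells, and so is the DNA replication list, at 8.86 against 9.33 to 9.41 in the other AD arrays.

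AD replicate 4 was the lowest AD array for 8 of the 10 genes higher in AD cells. It was the highest AD array for 2 of the 5 higher in AI cells. For 29 of all 42 genes it was the outermost AD array on the side of the AI mean. That need not be the AD array closest to AI cells, since for Bmi1 it lay beyond the AI arrays. Relative to the mean of the other AD arrays, AD replicate 4 differed by a median of -0.26 over the 10 genes and -0.05 over the 5. All 15 genes still passed without it, when 16 of the 42 were higher in AD cells and 8 in AI cells. The background of bright genes also rose then, to 25.8% toward AD and 18.6% toward AI.

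The same array stood apart in genes of the cell cycle, which were listed separately and share no gene with the 42. Of 42 measured DNA replication genes, 40 were higher in AD cells at any fold and 0 in AI cells (26 and 0 called), with a median log2 ratio of 0.65 or, without AD replicate 4, of 0.76. Their mean signal was 9.35, 9.41, 9.33 and 8.86 in AD replicates 1 to 4 and 8.54 to 8.74 in the AI arrays. All 27 measured mitosis genes were higher in AD cells (10 called), with a median of 0.54 and array means of 9.72, 9.74, 9.73 and 9.48 against 8.91 to 9.21. The 8 genes higher in AD cells for which AD replicate 4 was the AD array closest to AI cells were Hells, Uhrf1, Dnmt1, Dnmt3b, Ezh2, Suz12, Suv39h2 and Hdac9. The part of cell cycle activity in their differences was not tested.

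Promoter sequence was examined for the letters of 3 elements found in cell cycle promoters. The windows run from 250 bases before to 50 bases after each RefSeq start on the GRCm38.p6 assembly, and 34 of the 42 genes had an entry, with 44 promoters. The E2F letters TTTGGCGC or TTTCCCGC, on either strand, stood in at least 1 promoter of Hells, Suz12, Ezh2 and Dnmt1, 4 of the 10 genes higher in AD cells. They stood in 0 of 4 genes higher in AI cells that had an entry and in 1 of 20 others, Arid1a, whereas 2.56% of the 15614 array genes with an entry and 1.56% of all 32851 promoters had them. Since these are letter matches, they are a description and show no binding.

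The stretches below are those of the 4 genes, shown because they hold the match, 5′ to 3′ on the gene's own strand, with the E2F letters in capitals. Positions are counted from 0 at the first transcribed base. The Hells stretch is chr19:38930740-38930989 on the plus strand, with the match at -62, and the Suz12 stretch is chr11:79992856-79993105 on the plus strand, with the match at -219. The Ezh2 stretch is chr6:47595011-47595260 on the minus strand, with the match at 3, just inside the transcript. For Dnmt1, the 30 bases at chr9:20952574-20952603 on the minus strand, from 20 to 49 within the transcript, hold the match at 33.
Hells: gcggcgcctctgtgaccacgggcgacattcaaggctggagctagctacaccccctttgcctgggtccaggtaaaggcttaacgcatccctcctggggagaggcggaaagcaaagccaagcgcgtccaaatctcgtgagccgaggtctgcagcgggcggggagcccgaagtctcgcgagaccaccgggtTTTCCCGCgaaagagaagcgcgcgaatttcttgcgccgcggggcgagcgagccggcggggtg
Suz12: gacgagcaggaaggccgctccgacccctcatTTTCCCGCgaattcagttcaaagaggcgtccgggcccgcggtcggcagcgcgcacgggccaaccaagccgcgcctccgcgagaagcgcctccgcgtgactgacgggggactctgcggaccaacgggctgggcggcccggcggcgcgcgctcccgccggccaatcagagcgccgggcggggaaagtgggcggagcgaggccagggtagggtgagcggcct
Ezh2: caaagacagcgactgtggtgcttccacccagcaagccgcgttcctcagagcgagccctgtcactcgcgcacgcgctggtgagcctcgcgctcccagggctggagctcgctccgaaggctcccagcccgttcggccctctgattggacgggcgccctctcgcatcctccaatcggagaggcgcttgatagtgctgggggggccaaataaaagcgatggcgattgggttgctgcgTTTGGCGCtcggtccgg
Dnmt1: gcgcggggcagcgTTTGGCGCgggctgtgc

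The match lies at a different distance from the start in each of the 4. The CHR letters TTTGAA stood in at least 1 promoter of 5 of the 10 genes higher in AD cells (Dnmt1, Dnmt3b, Hdac9, Suv39h2 and Suz12). They stood in 1 of 4 higher in AI cells (Cbx7) and in 1 of 20 others (Eed). By gene the share was 17.3% of array genes. By promoter it was 5 of 15 for the genes higher in AD cells and 17.9% of all promoters. The Dnmt1 match lay in another promoter than its E2F match. The CCAAT box, searched as CCAAT, stood in 5 of 10, 2 of 4 and 8 of 20, against 41.7% of array genes and 37.4% of all promoters. No match of one element overlapped that of another in these promoters.

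Related genes of a class were also set against each other, by asking whether the difference between them changed from AI to AD cells. This was done for 12 pairs with an exact two-sided permutation test over arrays, which cannot give less than p = 0.0286 for 4 arrays against 4. At that floor at least 7 of the 12 pairs would have had to reach the smallest p for any to pass after adjustment. With 6 at the floor, the smallest adjusted p was 0.0571 and none passed, so the test says little about single pairs. At that value were Hdac9 against Hdac4, with a difference of log2 ratios of 1.47, Ezh2 against Ezh1 with 0.81 and Uhrf1 against Uhrf2 with 0.62. Rnf2 against Ring1 had 0.35, Dnmt1 against Dnmt3a 0.30 and Smarca4 against Smarca2 -0.35 at the same adjusted p, and in these 6 pairs the arrays of the phenotypes did not overlap. Tet1 against Tet2 had 0.43, and Dnmt1 against Dnmt3b and Cbx2 against Cbx7 each had 0.15 (exact permutation test, adjusted p = 0.0762). Ehmt2 against Ehmt1 had -0.11 and Hdac2 against Hdac1 had 0.10 (exact permutation test, adjusted p = 0.0935), and Kdm5b against Kdm5a had -0.02. Without AD replicate 4, 7 of the 12 pairs were at the floor and so passed. The pairs had been chosen with earlier results of these data known, so these p-values describe the arrays and are no independent test.

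Genes that work with each class were listed as partners, and 175 of 185 were measured. Of these, 3 were called higher in AD cells and 2 higher in AI cells, and at any fold 36 were higher in AD cells, 15 in AI cells and 124 did not pass. These are 20.6% and 8.57% of the partners at any fold, against 11% and 10.7% of all genes and 18.7% and 17.5% of bright genes, and the 5 called are 2.86%, against 4.41% of all genes. Their median log2 ratio was 0.07. The called genes were Gadd45b, Chd1l and Rad54l in AD cells and Phf1 and Smarca1 in AI cells.

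Of 17 DNA methylation partners, 5 were higher in AD cells and 0 in AI cells. Gadd45b, a stress-induced factor linked to active demethylation, had 7.65 ± 0.09 in AD and 7.03 ± 0.06 in AI cells, a log2 ratio of 0.62 (limma, adjusted p = 0.000222). Cdca7, which activates the Hells remodeler, had 0.53 and its AD replicate 4, at 7.62, lay within the AI range of 7.43 to 7.68, so that the ratio was 0.69 without that array. Usp7, a deubiquitinase that stabilizes Uhrf1 and Dnmt1, had 0.30.

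Of 26 Polycomb partners, 5 were higher in AD cells and 2 in AI cells. Phf1, a PRC2 accessory factor that binds methylated histone H3, gave 6.72, 7.09, 6.88 and 7.14 in AD arrays and 7.89, 7.97, 7.98 and 7.82 in AI arrays. It was 1.95-fold higher in AI cells, at a log2 ratio of -0.96 (limma, standard error 0.09 and adjusted p = 0.000204). Mtf2, of the same accessory family, went the other way with 0.30 (adjusted p = 0.00298), and Cbx8, a chromobox gene like Cbx2 and Cbx7, was higher in AI cells with -0.46 (adjusted p = 0.0116).

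The histone methylation partners had 9 genes higher in AD cells and 8 higher in AI cells out of 47, with none called. The deacetylase partners had 5 and 3 out of 34, with none called. The 3 higher in AI cells were Kat6b, a histone acetyltransferase, with a log2 ratio of -0.58, Hdac11 with -0.57 and Hdac7 with -0.38, and Sirt1, a NAD-dependent deacetylase, was higher in AD cells with 0.57. The partner genes named without being called (Cdca7, Usp7, Mtf2, Cbx8, Kat6b, Hdac11, Hdac7 and Sirt1) were picked after their values were seen.

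Remodeler partners had 12 genes of 51 higher in AD cells and 2 in AI cells. Rad54l, a SNF2-family motor of recombination repair, had 7.83 ± 0.32 against 6.98 ± 0.13, a log2 ratio of 0.86 (limma, adjusted p = 0.00349), with AD replicate 4 at 7.36 between the other AD arrays and the AI arrays and a ratio of 1.01 without it. Chd1l, a remodeler that responds to poly(ADP-ribose), had 0.68 (adjusted p = 0.00263 from limma). Smarca1, the SNF2L subunit of neuronal ISWI complexes, gave 5.64, 5.68, 5.63 and 5.75 in AD arrays and 6.63, 6.61, 6.59 and 6.57 in AI arrays. Its arrays were tight within each phenotype, at a log2 ratio of -0.93 (limma, standard error 0.05 and adjusted p = 8.48e-06), but each AD value lay below its own array's median, so the size of the ratio is not known exactly.

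**Figure D4:**
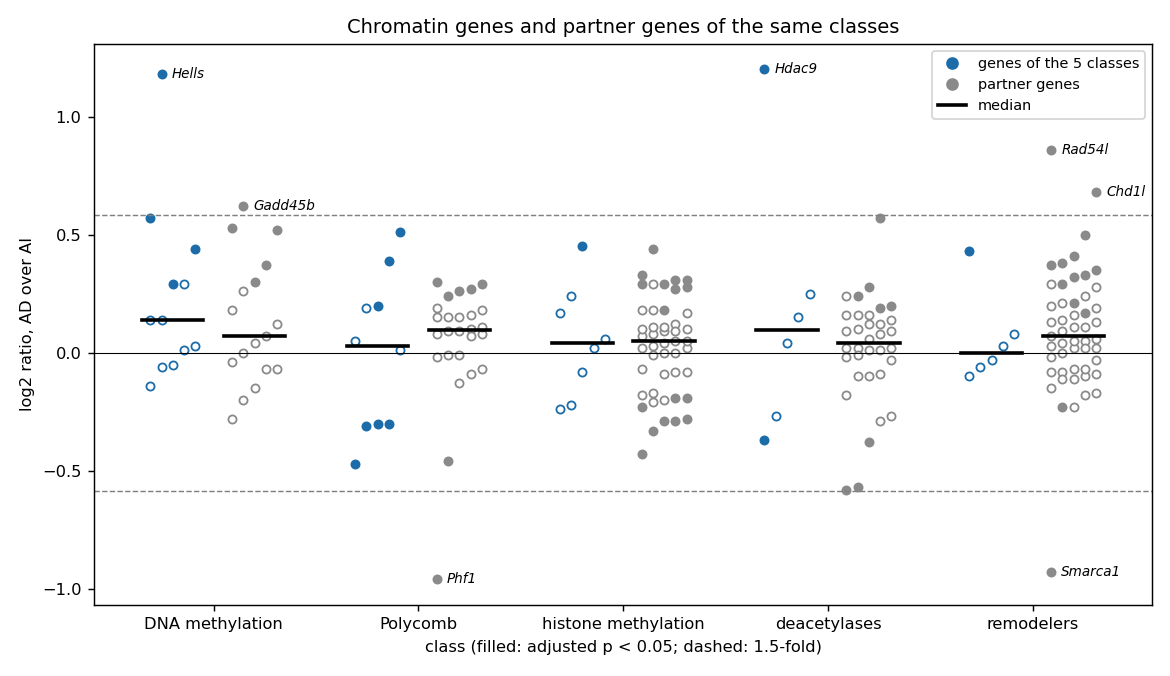
Log2 ratio of AD over AI (vertical axis) for the 42 genes (blue) and 175 partner genes (grey) by class, with filled points for an adjusted p under 0.05, black bars for medians and dashed lines at 1.5-fold. Medians lie between -0.00 and 0.14, and the labelled genes beyond the dashed lines are Hells, Hdac9, Gadd45b, Rad54l, Chd1l, Phf1 and Smarca1.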

How the data were processed

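Neuro2a RNA, 4 samples labelled AD and 4 labelled AI, was hybridized to 8 Affymetrix mouse gene ST arrays. The deposited table holds log2 signals that the authors made with background correction and normalization. The submitters' processing notes name Partek 6.5 and GCRMA, whereas the methods also name GeneSpring and further normalizations, which were not used here. How such correction changes the ratios of dim genes was not tested. Of 35556 transcript clusters, 21789 carried a single symbol, 21698 of them matched by gene number to RefSeq (GRCm38.p6), and values ran from 3.28 to 13.63. Array medians were 5.82 to 5.92 in AD and 5.92 to 5.99 in AI cells. The number of arrays limits the precision.

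The 4 AD arrays were set against the 4 AI arrays in R 4.3.3 by limma 3.58.1, using lmFit and eBayes without a covariate, over all clusters and with Benjamini-Hochberg adjustment. Named were all 43 listed genes and, from each partner list, up to 3 called genes per direction. Values in every array were to be given for called listed genes and their pair partners. They were added for the other listed genes that passed, except Jarid2. The genes, lists and pairs were chosen with earlier results of these data known. On simulated data for this comparison with 200 of 35556 clusters changed, the model found 86% of the 1.75-fold changes, 98% of the 2-fold changes and 100% of the larger ones, with 4 false calls. The simulated noise was independent between clusters and arrays, so no array was shifted across many clusters as AD replicate 4 was. These figures may therefore not hold for the real arrays. Same-numbered AD and AI arrays had deviations correlating at -0.112, 0.078, 0.005 and -0.175, so the numbers were not taken to pair arrays. Permutation tests, motif searches and plots used Python 3.11.15, pandas 2.3.3, numpy 2.4.6, scipy 1.17.1 and matplotlib 3.10.9. Alternatives were other scalings (quantile, median centring), leaving out the dimmest 40% of clusters, analysis of variance without moderation (the methods' test), trend and robust variance, array weights, a replicate block, means of clusters, other thresholds and leaving out each array.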

Additional observations from a re-analysis of the deposited data

Results flagged for a closer look

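In 5 of the 84 sets of 4 arrays examined (42 genes in each phenotype), 1 array lay far from the other 3 by Dixon's criterion, where chance gives about 1 in 20. AD replicate 4 was the low array for Hells (8.80), Dnmt1 (9.75) and Bmi1 (9.17), with the gap to the next array at 0.857, 0.841 and 0.859 of the whole range. AI replicate 1 was the high array for Mbd1 (8.33), with a gap of 0.923 of the range, and for Kdm1a (10.95), with 0.858. Hells and Dnmt1 were higher in AD cells with and without AD replicate 4. Bmi1, Mbd1 and Kdm1a did not pass the test either way.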

How the results depend on the processing

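Hells and Hdac9 were called in each of the 16 alternative settings, and Dnmt1, Uhrf1, Ezh1, Ezh2, Ring1, Cbx2, Cbx7, Hdac5 and Smarca2 passed at an adjusted p under 0.05 in each. After median centring, 4 of the 42 genes were called, all 4 in AD cells (Uhrf1 and Ezh2 in addition). The median log2 ratio was then 0.12 over the 42 genes and 0.09 over all genes with a single symbol. Class medians were 0.22 for DNA methylation, 0.10 for Polycomb, 0.12 for histone methylation, 0.17 for deacetylases and 0.08 for remodelers. The median log2 ratio of all clusters shifted by 0.077. Partners called became 8, with 6 in AD cells. With array weights they were 8, with 5 in AD cells, and 8 of the 42 genes passed toward AI cells. No share of all genes is given for these settings, so these counts are no result about the 42.

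With the replicate number as a block, 6 of the 42 genes passed toward AD cells in place of 10, as did 6 at an adjusted p under 0.01. At 1.2-fold, 14 of the 42 genes were called, 9 in AD and 5 in AI cells, with 39 partners (28 and 11) and 5234 of all clusters, where 1.5-fold gave 1396. At 2-fold these were 0 partners (0 and 0) and 254 clusters, with Hells and Hdac9 called. No share of all genes is given for the block or for these other thresholds, so the counts are no result about the 42.

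Leaving out 1 array gave 1217 to 1636 clusters, 2 to 3 of the 42 genes called, and 5 to 9 partners (3 to 6 in AD cells). At any fold it gave 6 to 16 of the 42 genes toward AD and 5 to 8 toward AI. The count of 6 came without AD replicate 1, AD replicate 3 or AI replicate 3, and the counts of 16 and 8 without AD replicate 4, as did the 9 partners. A background share is given above only for the fit without AD replicate 4, where it also rose, so these counts are no result about the 42. The deacetylase median ranged from 0.06 to 0.15, the latter without AD replicate 4. Pairs that passed numbered 0 to 7, with 7 without AD replicate 2 or AD replicate 4, and 7 after quantile normalization. The causes were not tested.

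Signs turned for genes near 0 that passed in no setting. These were Uhrf2 0.03, Tet3 0.02, Arid1a 0.05 and Chd7 0.01 after median centring, Mbd1 -0.01 and Bmi1 -0.03 after quantile normalization, and Mbd1 -0.01 and Arid1a 0.01 with array weights. With 1 array left out they ranged from -0.11 to 0.02 for Tet3, from -0.01 to 0.06 for Mbd1, from -0.03 to 0.09 for Bmi1, from -0.06 to 0.02 for Arid1a, from -0.0002 to 0.06 for Chd4 and from -0.06 to 0.0008 for Kdm5b minus Kdm5a.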
